A study of Mus musculus with 4 samples.

Results

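Adventitial fibroblasts were taken from 4 single-cell count tables of mouse lung as the cells that held RNA of several general fibroblast genes together with RNA of surface genes of the adventitial fibroblast. A cell had to show more than 200 and fewer than 5000 genes, at most 25000 UMIs (unique molecular identifiers, 1 per captured RNA molecule) and less than 8% mitochondrial UMIs. It had to hold at least 1 UMI of 4 or more of Dcn, Pdgfra, Col1a1, Col1a2, Col3a1, Gsn, Mgp and Serping1, and at least 1 UMI of 2 or more of Pi16, Ly6a, Cd34 and Ly6c1. Cells with any UMI of Ptprc (the pan-leukocyte CD45), Epcam (epithelium), Pecam1 (endothelium), Npnt or Col13a1 (alveolar fibroblasts), or Postn or Cthrc1 (matrix genes of activated fibroblasts) were left out. These conditions gave 302 adventitial fibroblasts among 28153 cells within the limits and 34037 barcodes in all. They were 302 of the 1114 cells that met the fibroblast condition.

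The study asked how pulmonary fibroblasts (pFBs) change with age. Whole lungs of wild-type male C57BL/6 mice were digested with collagenase D and DNase1, dead cells were removed, and the live cells were sequenced on the 10x Genomics 3′ platform without sorting for any cell type. The ages were 10 days (NB), 2 months (2 M), 10 months (10 M) and 18 months (18 M), with 1 library per age and no treatment or transgene. The number of animals behind each library was not given in the sources used here, so no replicate stands behind a difference between ages, and every interval on a UMI count or a share of cells covers counting error only.

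In the lung, adventitial fibroblasts lie in the connective tissue cuffs around large vessels and airways. They make the loose collagen and elastic matrix of these cuffs, and they secrete chemokines, complement and the alarmin interleukin-33, through which they are known to interact with immune cells. Pi16 encodes a secreted peptidase inhibitor, Ly6a the surface protein Sca-1, and Cd34 a sialomucin that endothelial cells carry too. Alveolar fibroblasts, the other main interstitial fibroblast of the lung, lie in the alveolar walls and include the lipid- and retinoid-storing lipofibroblasts.

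The library labelled 18 M stood apart from the rest before any comparison between ages. Its fibroblasts held 609 CPM (UMIs per 1000000 UMIs of the class) of Xist, which is transcribed from the inactive X chromosome of females, and its lymphocytes held 695 CPM, against at most 0.9 CPM in either class of the other 3 libraries, although all were labelled male. Of its 8 adventitial fibroblasts, 1 held Xist and no Y-linked RNA, 4 held Y-linked RNA and no Xist, and 3 held neither. No adventitial fibroblast of the other libraries held Xist without Y-linked RNA. The libraries shared 131 pairs of identical cell barcodes, and 5 of the barcodes of adventitial fibroblasts occurred in a second library, none of them as an adventitial fibroblast there.

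The NB library gave 50 adventitial fibroblasts, the 2 M library 49, the 10 M library 195 and the library labelled 18 M 8. As a share of all cells they were 0.784% for NB (exact Clopper-Pearson 95% interval 0.582 to 1.03%), 0.885% for 2 M (0.655 to 1.17%), 2.48% for 10 M (2.15 to 2.85%) and 0.0955% for the library labelled 18 M (0.0412 to 0.188%). The 10 M share lay above the intervals of the other ages, the 18 M share lay below them, and NB and 2 M overlapped. Among cells that met the fibroblast condition the shares were 24.4% for NB, 38.3% for 2 M, 41.9% for 10 M and 2.53% for the library labelled 18 M.

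Most candidate cells of the library labelled 18 M, and few of the others, held one of the 2 matrix genes of the exclusion. Of the cells with the fibroblast genes and at least 2 of the 4 adventitial genes, 86 for NB, 77 for 2 M, 303 for 10 M and 92 for the library labelled 18 M, those with a UMI of Postn or Cthrc1 were 3 for NB (3.49%, 0.725 to 9.86%), 2 for 2 M (2.60%, 0.316 to 9.07%), 14 for 10 M (4.62%, 2.55 to 7.63%) and 67 for the library labelled 18 M (72.8%, 62.6 to 81.6%). Postn encodes periostin and Cthrc1 a secreted protein of collagen-producing fibroblasts. Had both genes been allowed, the counts would have been 52 for NB, 50 for 2 M, 204 for 10 M and 45 for the library labelled 18 M, where 37 of the 67 cells would thus have been added and the others held a further excluded gene. The shares of all cells would have been 0.815%, 0.903%, 2.59% and 0.537% (0.392 to 0.718%) in that order, and those of the fibroblasts 25.4, 39.1, 43.9 and 14.2%. The count at 18 M depends on the exclusion of these genes, and the share of fibroblasts there was the lowest with either rule. Values for the 45 cells are given below beside those for the 8.

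**Figure D1:**
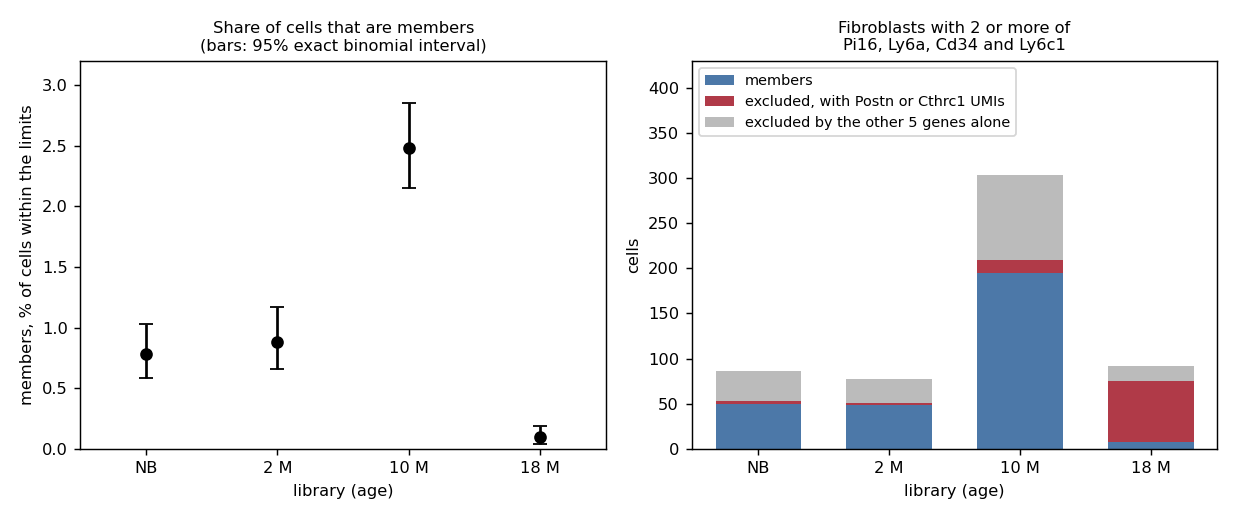
Adventitial fibroblasts by library (NB, 2 M, 10 M and the library labelled 18 M). Left, percent of the cells within the limits, with exact 95% intervals; right, numbers of cells with the fibroblast genes and at least 2 of the 4 adventitial genes, stacked as members, cells set aside for Postn or Cthrc1, and cells set aside for the other 5 genes alone. In the library labelled 18 M, 67 of 92 such cells were set aside for Postn or Cthrc1 and 8 were kept.

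The depth behind each value differed greatly. The adventitial fibroblasts summed to 294685 UMIs for NB, 396631 for 2 M, 1443650 for 10 M and 29368 for the library labelled 18 M, so that 1 UMI was worth 3.39, 2.52, 0.693 and 34.1 CPM in that order of age. The median cell held 5593.5 UMIs for NB, 7121 for 2 M, 7141 for 10 M and 1077.5 for the library labelled 18 M. In that library 1 cell of 18733 UMIs gave 63.8% of the sum, and 5 of the 8 cells held fewer than 2000 UMIs. A gene listed there with 0 UMIs may have been present at up to 102 CPM, taking 3 UMIs as the limit that a count of 0 allows, against up to 2.08 CPM at 10 M.

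Pi16, Ly6a, Cd34 and Ly6c1 chose the cells, so their levels are a description. Pi16 stood at 926 CPM in NB, 1563 CPM in 2 M, 1052 CPM in 10 M and 613 CPM in the library labelled 18 M, and it was found in 80.0, 91.8, 80.5 and 100% of the adventitial fibroblasts of these ages. Cd34 stood at 845, 572, 532 and 885 CPM in the same order. Ly6a stood at 1025 CPM in NB, 847 CPM in 2 M and 1513 CPM in 10 M, and Ly6c1, which encodes a related surface protein, at 373, 219 and 570 CPM. Neither Ly6a nor Ly6c1 had a single UMI in the 8 cells of the library labelled 18 M, all of which were chosen by Pi16 together with Cd34. Over all ages 250 of the 302 cells held Pi16, 280 Ly6a, 258 Cd34 and 186 Ly6c1, and 139 cells held all 4 genes.

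Other cell classes held these genes to different degrees. Read at 2000 UMIs per cell, to which each deeper cell was thinned and from which shallower cells were left out, Pi16 was found in 70.5% of adventitial fibroblasts in NB, 76.2% in 2 M and 62.4% in 10 M, and in 0.28 to 0.51% of lymphocytes, a share that gives the level of free RNA. No alveolar fibroblast held it at that depth, but that class was itself chosen to hold fewer than 2 of the 4 genes. Ly6a stood at 1545 CPM in NB, 1671 CPM in 2 M, 1434 CPM in 10 M and 252 CPM in 18 M endothelial cells, and at 231, 105, 150 and 60.8 CPM in lymphocytes. The low Ly6a of the library labelled 18 M was thus also seen in its endothelial cells and lymphocytes. The promoter of Pi16, a gene on the plus strand at chr17:29317680-29330593 (GRCm38), is shown because this gene defines the cells. It is the RefSeq window chr17:29318632-29318931 (GRCm38.p6, plus strand), 250 bases before to 50 bases after a transcript start, with the CCAAT box motif in capitals.

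Pi16: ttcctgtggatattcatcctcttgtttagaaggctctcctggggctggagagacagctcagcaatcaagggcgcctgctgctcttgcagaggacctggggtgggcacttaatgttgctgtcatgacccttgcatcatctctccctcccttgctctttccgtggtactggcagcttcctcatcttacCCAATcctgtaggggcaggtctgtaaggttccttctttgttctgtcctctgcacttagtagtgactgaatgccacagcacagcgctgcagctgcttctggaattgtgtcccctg

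The motif begins 64 bases before the start (position -64). CCAAT was searched on both strands and occurs in 37.4% of 32851 promoter windows of this length. The other motifs searched were the TATA box (TATAAA), the AP-1 motif (TGANTCA), the GC box (GGGCGG) and the E-box (CACGTG), and this window held none of them.

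Fibroblast genes of the rule were among the most abundant RNAs of the adventitial fibroblasts. Gsn, which encodes the actin-severing gelsolin, was found in all 302 cells and stood at 21206 CPM in NB, 22439 CPM in 2 M, 17840 CPM in 10 M and 5074 CPM in the library labelled 18 M. Mgp, the matrix Gla protein that inhibits calcification, stood at 13676, 19134, 21982 and 12837 CPM in the same order. Dcn, which encodes the collagen-binding proteoglycan decorin, stood at 9176, 9956, 7709 and 1532 CPM, against 677, 2224, 928 and 1279 CPM in alveolar fibroblasts. Both genes were lowest in the library labelled 18 M. In its 45 cells with Postn and Cthrc1 allowed Dcn stood at 6234 CPM, against 9835 CPM in 2 M (ratio 0.634). Pdgfra, the receptor that marks most lung fibroblasts, was lower at 210, 300, 139 and 170 CPM and was found in 160 of the 302 cells.

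Genes of the adventitial list that had no part in the rule were checked next. Their summed level was 11897 CPM in NB, 12114 CPM in 2 M, 10751 CPM in 10 M and 7151 CPM in the library labelled 18 M, against 2448, 4334, 3621 and 4976 CPM in alveolar fibroblasts of the same libraries. All 20 genes of the list had a UMI in NB, 2 M and 10 M, and 16 of 20 did in the library labelled 18 M. By this sum the 8 cells labelled 18 M lay nearest to the alveolar fibroblasts of their own library. Among these 8 cells the cell richest in the list held 167 of its 210 UMIs. The sum labelled 18 M therefore mostly describes that cell and does not place the others above the alveolar fibroblasts. Clec3b, which encodes tetranectin, was found after thinning in 86.4% of NB, 95.2% of 2 M and 87.3% of 10 M adventitial fibroblasts, against 7.89, 42.9 and 42.6% of alveolar fibroblasts. Dpp4, a peptidase known from Pi16+ fibroblasts of other tissues, was found in 4% of NB, 2.04% of 2 M and 3.59% of 10 M adventitial fibroblasts, and in no alveolar fibroblast of these libraries. Lymphocytes, which are known to carry its product CD26, held Dpp4 in 7.25 to 15.4% of cells, and the part of their free RNA in the few adventitial fibroblasts with Dpp4 was not tested.

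**Figure D2:**
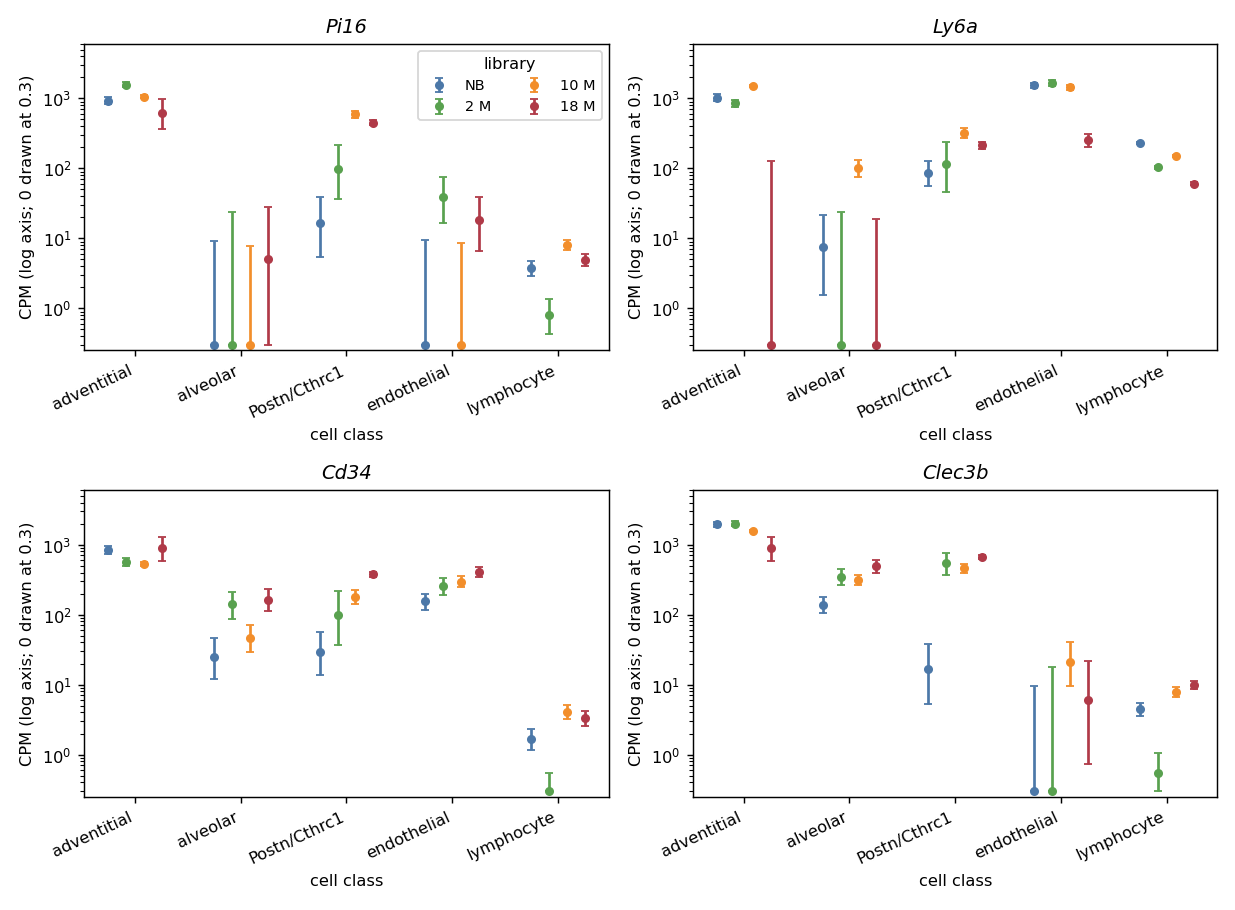
Levels of Pi16, Ly6a, Cd34 and Clec3b (CPM of the class sum, log axis, with exact Poisson 95% intervals) in 5 cell classes of the 4 libraries; counts of 0 are drawn at 0.3. Pi16 is near 0 outside the adventitial fibroblasts and the fibroblasts with Postn or Cthrc1, while Ly6a and Cd34 are also present in endothelial cells.

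The condition on the adventitial genes decided more cells than the condition on the fibroblast genes. Only 6 cells entered with exactly 4 of the 8 fibroblast genes (median 1288 UMIs), and 3 missed by holding 3 of them (median 696 UMIs). By contrast 71 cells entered with exactly 2 of the 4 adventitial genes, and 74 missed with 1. Clec3b stood at 1036 CPM in the 71 cells just inside and at 847 CPM in the 74 just outside, Cd248, which encodes endosialin, at 52.0 and 52.7 CPM, and Inmt, a methyltransferase gene typical of alveolar fibroblasts, at 1232 and 819 CPM. The cells just inside were deeper, with a median of 2662 UMIs against 1219 UMIs outside. The library labelled 18 M gave 8 of the 71 cells inside and 27 of the 74 outside, so these levels also mix libraries. A further 12 cells met the conditions on genes but lay outside the limits on genes, UMIs or mitochondrial share.

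RNA of other cell types in the adventitial fibroblasts differed by library. Mesothelial markers summed to 3.39 CPM in NB and to 0 at the other ages, endothelial markers to 50.9, 50.4, 18.7 and 68.1 CPM in NB, 2 M, 10 M and the library labelled 18 M, and pericyte and smooth muscle markers to 132, 136, 296 and 136 CPM. Epithelial markers reached 3031 CPM in the library labelled 18 M, against 193 CPM in NB, 131 CPM in 2 M and 107 CPM in 10 M. Erythroid genes (haemoglobin) reached 6553 CPM at 10 M, where 5 cells held 90.2% of their UMIs, and 8887 CPM in the library labelled 18 M. There each of the 8 cells held haemoglobin (8 to 125 UMIs) and Sftpc, the surfactant gene of alveolar epithelium (1 to 47 UMIs). No doublet caller was run. The exclusion of 7 genes removes doublets with leukocytes, epithelium and endothelium in which those genes were captured, and their part in the remaining cells was not tested.

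To find what set these cells apart from their nearest neighbours, adventitial fibroblasts were compared with the 123 alveolar fibroblasts of the same libraries (39, 14, 47 and 23 from NB to 18 M). These met the same limits and fibroblast condition, held Npnt or Col13a1, held fewer than 2 of the 4 adventitial genes, and lacked the other excluded genes. UMIs were summed per library and class and tested with edgeR's quasi-likelihood test with the library as a block, over 4736 genes outside the rule. Adventitial fibroblasts were higher for 240 genes (5.07% of those tested) and lower for 293 (6.19%) at a Benjamini-Hochberg adjusted p under 0.05. At an unadjusted p under 0.05 the counts were 466 and 589. The test asks how alike the difference between both cell classes was in 4 libraries of different ages, and genes that go with Pi16 or Npnt within cells are not independent of the choice. Without the NB library the counts were 123 higher and 161 lower, without 10 M 85 and 93, and without the library labelled 18 M 372 and 401.

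Of the genes tested, 183 (3.86%) were scored higher in adventitial fibroblasts past the test and in each of the 4 libraries. Another 218 (4.6%) were scored lower in the same way. Direction was read with 0.5 UMIs added to each count. In the library labelled 18 M the sums were 29368 UMIs in adventitial and 195523 UMIs in alveolar fibroblasts. There the added constant alone can score a gene without an adventitial UMI as higher. The 183 include such cases and cannot be read as a count of genes measured higher in all 4 libraries. The highest of these 183 genes included receptors, secreted inhibitors, enzymes of nucleotides and hyaluronan, the alarmin Il33 and the chemokine Ccl7. Scara5, a scavenger receptor for ferritin, led with a log2 difference of 5.89 (SE 0.61, edgeR adjusted p = 1.41e-06). It stood at 285 CPM in NB, 285 CPM in 2 M and 165 CPM in 10 M adventitial fibroblasts, against 0 in the alveolar fibroblasts of all 3, and at 34.1 CPM (1 UMI) against 20.5 CPM (4 UMIs) in the library labelled 18 M. Against the limit of 3 UMIs, Scara5 was at least 38.2-fold higher in NB, 14.9-fold in 2 M and 26.2-fold in 10 M. For the library labelled 18 M the ratio was 1.66 (0.034 to 16.8). Serpinf1, which encodes the anti-angiogenic factor PEDF, was 4.40 higher on the log2 scale (SE 0.62, edgeR adjusted p = 5.53e-05). Its levels were 577 against 0 CPM in NB, 1180 against 69.9 CPM in 2 M, 795 against 4.20 CPM in 10 M and 1056 against 363 CPM in the library labelled 18 M, and the interval of the ratio excluded 1 in every library.

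Cd248 differed by 4.26 (SE 0.57, edgeR adjusted p = 3.57e-05), with 146, 176, 157 and 68.1 CPM in adventitial against 0, 0, 2.10 and 51.1 CPM in alveolar fibroblasts from NB to 18 M. Its 18 M levels, 2 UMIs in 1 adventitial fibroblast and 10 UMIs in alveolar fibroblasts, cannot be told apart at this depth. Entpd2, an ectonucleotidase that hydrolyses extracellular ATP, differed by 3.91 (SE 0.38, edgeR adjusted p = 4.95e-07), with 207, 252, 212 and 170 CPM against 7.47, 38.1, 6.30 and 25.6 CPM. Il33, whose product activates type 2 innate lymphoid cells, differed by 3.75 (SE 0.38, edgeR adjusted p = 9.26e-07), with 288, 63.0, 205 and 68.1 CPM against 19.9, 6.35, 8.40 and 25.6 CPM. Entpd2 was higher in the adventitial fibroblasts of every library. For Il33 this holds in NB, 2 M and 10 M, while 2 UMIs in adventitial and 5 in alveolar fibroblasts labelled 18 M cannot be told apart at this depth. The levels of Il33 were the more spread over the ages. Has1, a hyaluronan synthase, differed by 3.36 (865, 812, 1266 and 443 CPM against 12.5, 184, 71.4 and 174 CPM), and Ccl7, a monocyte chemoattractant, by 3.24 (641, 741, 1042 and 6333 CPM against 194, 57.2, 221 and 97.2 CPM). The 6333 CPM of Ccl7 at 18 M came nearly all from 1 cell, which held 185 of its UMIs. The 443 CPM of Has1 at 18 M (13 UMIs) likewise came from a single one of the 8 adventitial fibroblasts.

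The other genes of the highest 12 were Adgrd1, an adhesion receptor (log2 difference 3.58), Tgfbi, a TGFβ-induced matrix protein (3.39), Gxylt2 (3.24), Ifi205 (3.21) and Apod, an apolipoprotein (3.21). Agreement in all 4 libraries was read with 0.5 UMIs added to each count. In the library labelled 18 M, Ifi205 had 0 UMIs in both classes, and Apod had 1 UMI in adventitial (34.1 CPM) against 9 UMIs in alveolar fibroblasts (46.0 CPM), so both rest on the other 3 libraries. The promoters of Serpinf1 and Entpd2, both among the 4 genes with the highest difference, are shown. They are the windows chr11:75422574-75422873 (minus strand, gene at chr11:75409769-75422701) for Serpinf1 and chr2:25395624-25395923 (plus strand, gene at chr2:25395874-25401321) for Entpd2, both GRCm38.p6 and read in the direction of the gene, with every motif found in capitals.

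Serpinf1: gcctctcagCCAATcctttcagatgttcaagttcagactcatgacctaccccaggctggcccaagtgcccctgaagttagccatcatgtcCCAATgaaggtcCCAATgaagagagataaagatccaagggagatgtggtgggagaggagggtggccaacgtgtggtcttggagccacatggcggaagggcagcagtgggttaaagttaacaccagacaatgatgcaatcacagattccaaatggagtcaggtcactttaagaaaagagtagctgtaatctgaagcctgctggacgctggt
Entpd2: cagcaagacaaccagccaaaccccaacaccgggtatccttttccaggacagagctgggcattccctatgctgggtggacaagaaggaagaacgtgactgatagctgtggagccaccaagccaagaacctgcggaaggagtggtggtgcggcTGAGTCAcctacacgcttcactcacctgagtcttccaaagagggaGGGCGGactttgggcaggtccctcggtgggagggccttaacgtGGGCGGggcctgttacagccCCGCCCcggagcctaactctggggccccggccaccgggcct

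Serpinf1 held CCAAT at positions -241, -160 and -148. Entpd2 held the AP-1 motif TGANTCA, which is its own reverse complement, at -99, and the GC box GGGCGG at -54 and -11 on the plus strand and at 10 on the minus strand. TGANTCA occurs in 7.81% and GGGCGG in 35.7% of the 32851 windows. A match says only that the letters are present.

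**Figure D3:**
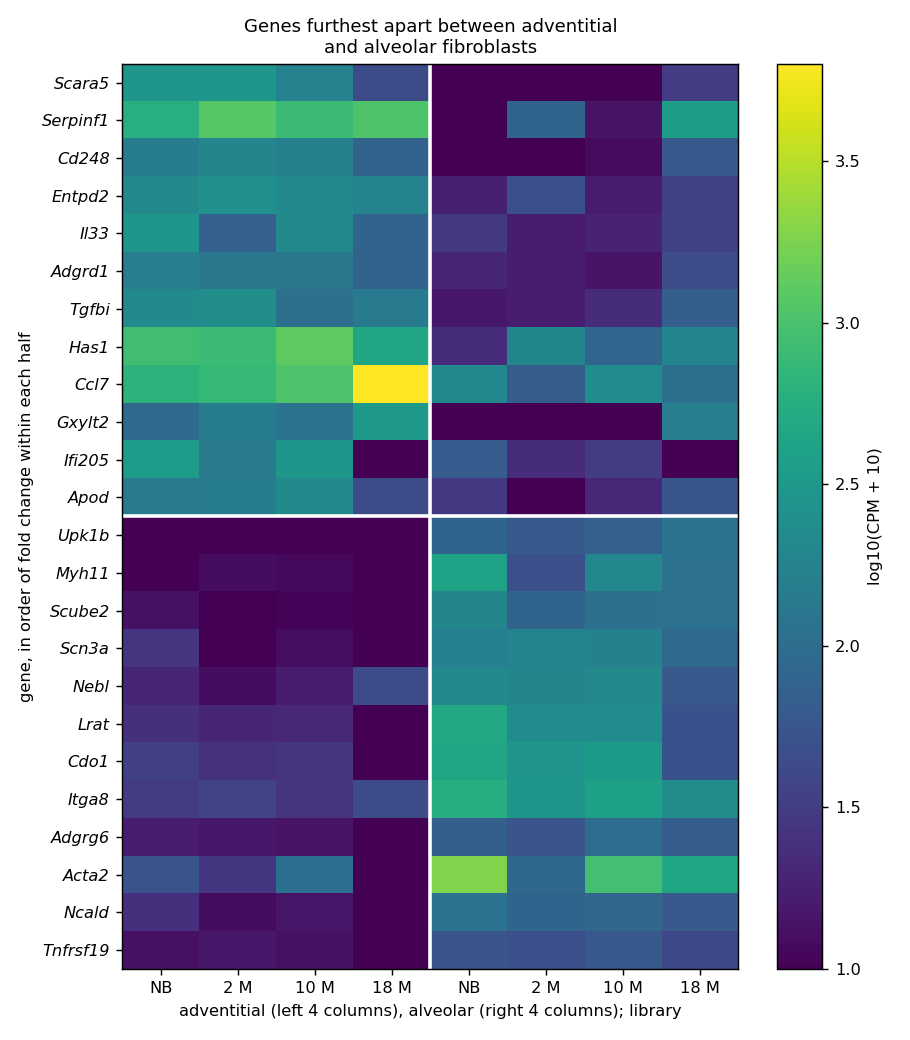
Heat map of log10(CPM + 10) of the 12 genes highest and the 12 lowest in adventitial over alveolar fibroblasts, with the 4 libraries of adventitial fibroblasts on the left and of alveolar fibroblasts on the right. Higher values are brighter. Scara5, Serpinf1, Cd248 and Entpd2 are brighter on the left and nearer the dark, lower end on the right except in the library labelled 18 M, where the contrast is smallest.

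The genes furthest below the alveolar level included contractile genes and genes of the alveolar fibroblast list. All 4 pericyte and smooth muscle markers tested were lower (median -3.51), beside 6.19% of all genes tested. Myh11, smooth muscle myosin, had 0, 2.52, 1.39 and 0 CPM in adventitial against 401, 38.1, 189 and 102 CPM in alveolar fibroblasts from NB to 18 M (log2 difference -6.76, SE 0.49, edgeR adjusted p = 2.07e-08). Acta2, smooth muscle actin, had 44.1, 17.6, 95.6 and 0 CPM against 1850, 76.3, 922 and 440 CPM (-3.82). These contractile values rest on few alveolar cells, since 5 cells held 83.5% of the pericyte and smooth muscle UMIs of the NB alveolar fibroblasts and 93.1% of those at 10 M. Itga8, an integrin subunit of interstitial fibroblasts, had 20.4, 27.7, 17.3 and 34.1 CPM against 545, 292, 380 and 235 CPM (-4.11, SE 0.31). Lrat, which esterifies retinol for storage, had 13.6, 10.1, 10.4 and 0 CPM against 486, 222, 218 and 40.9 CPM (-4.53, SE 0.32, edgeR adjusted p = 1.46e-08). Itga8 was thus lower in the adventitial fibroblasts of every library. For Lrat this holds in NB, 2 M and 10 M, while in the library labelled 18 M no UMI in adventitial and 8 in alveolar fibroblasts cannot be told apart at this depth.

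Upk1b, a uroplakin of the mesothelial list, had no UMI in any adventitial fibroblast, against 69.7 CPM in NB, 50.8 CPM in 2 M, 63.0 CPM in 10 M and 107 CPM in 18 M alveolar fibroblasts. Its fitted log2 difference of -7.70 depends on the prior count and is no bound. Against 3 UMIs, Upk1b in adventitial fibroblasts was at most 0.146 of the alveolar level in NB, 0.149 in 2 M and 0.033 in 10 M. Scube2 (-6.37), Scn3a, a sodium channel (-5.02), Nebl (-4.75), Cdo1, a cysteine dioxygenase (-4.18), Adgrg6 (-3.84), Ncald (-3.65) and Tnfrsf19 (-3.49) made up the rest of the lowest 12.

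By list, 15 of the 18 adventitial markers tested were higher and none was lower (median log2 difference 2.38, against -0.03 over all 4736 genes), and all 9 alveolar fibroblast markers tested were lower (median -2.86). Over all genes tested 5.07% were higher and 6.19% lower. Clec3b differed by 2.44 (SE 0.33, edgeR adjusted p = 3.8e-05), with 1951, 2004, 1566 and 885 CPM against 139, 349, 315 and 491 CPM. Ackr3, the scavenging receptor of Cxcl12, differed by 4.04 and Col14a1, a fibril-associated collagen, by 2.77. The eotaxin Ccl11 differed by 3.93 (edgeR adjusted p = 0.00736) in spite of the opposite order in the library labelled 18 M, with 719, 444, 422 and 0 CPM against 0, 6.35, 0 and 419 CPM. Dpt, dermatopontin (0.68, adjusted p = 0.118), and Pcolce2 (-0.29, adjusted p = 0.492), both used elsewhere as markers of universal fibroblasts, did not pass edgeR's test. Among the alveolar genes Cxcl14, a chemokine, was lower by -3.32 and Limch1 by -3.07, and Inmt had 2067, 966, 862 and 0 CPM against 5038, 3774, 3903 and 143 CPM (-1.86, SE 0.25, edgeR adjusted p = 3.78e-05). Inmt was therefore lower but far from absent in adventitial fibroblasts of the 3 younger ages.

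Several inflammatory and immune genes were higher. Of 13 chemokine and cytokine genes tested 7 were higher and 3 lower (median 1.19), and of 11 complement genes 5 were higher and 1 lower (median 0.77). Over all genes tested 5.07% were higher and 6.19% lower. Ptgs2, the inducible cyclooxygenase, had 2141, 1389, 2541 and 7287 CPM against 560, 108, 139 and 967 CPM (3.16, SE 0.30, edgeR adjusted p = 4.95e-07). Cxcl1, a neutrophil attractant, had 4293, 3966, 6861 and 1668 CPM against 1950, 801, 1397 and 972 CPM (1.67, SE 0.25, edgeR adjusted p = 8.9e-05). Both genes were higher in the summed adventitial fibroblasts of every library, although 203 of the 214 Ptgs2 UMIs labelled 18 M came from 1 cell. Without that cell the other 7 held 1034 CPM (516 to 1851) of Ptgs2 and the same level of Cxcl1. Neither level can be told apart from the 967 and 972 CPM of the alveolar fibroblasts there. Csf1, which keeps macrophages alive, was higher by 1.73, Cxcl12, a homing signal for leukocytes and progenitors, by 1.53 and Il6 by 1.16. Cd55, a brake on complement at the cell surface, was higher by 2.25 and the alternative-pathway gene Cfb by 1.59, whereas the complement inhibitor Cd59a was lower (-1.65). C3, the central complement protein, had 3231, 1505, 2216 and 136 CPM in adventitial fibroblasts from NB to 18 M and did not pass edgeR's test (1.01, adjusted p = 0.0817), nor did Ccl2 (1.19, adjusted p = 0.0989).

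The sum of immune RNA was also higher in the adventitial fibroblasts, but the share of cells that held it was higher only at 2 M. From NB to 18 M, 35 of 50, 27 of 49, 87 of 195 and 5 of 8 adventitial fibroblasts held a UMI of an immune marker. Among alveolar fibroblasts these were 28 of 39, 4 of 14, 26 of 47 and 15 of 23. At 10 M, 5 adventitial fibroblasts held 50.6% of these UMIs. Immune markers summed to 271, 134, 279 and 647 CPM from NB to 18 M, against 162, 76.3, 90.3 and 220 CPM in alveolar fibroblasts, and Cd74, the invariant chain of MHC class II, was higher by 2.14. The part of this RNA in the chemokine and complement differences was not tested. With the cells of both classes that held a UMI of a lymphocyte gene set aside, 232 genes were higher and 267 lower.

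Of 9 fibrillar and microfibrillar collagens tested outside the rule 3 were higher and none lower (median 0.43), beside 5.07% and 6.19% over all genes tested. Those higher included Col5a1 (1.25) and Col5a2 (0.91), which set the diameter of collagen fibrils. Of 17 elastic fibre genes 4 were higher and 1 lower (median 0.17), beside the same shares over all genes tested. Fbln2, with 363, 323, 371 and 34.1 CPM against 29.9, 95.3, 90.3 and 113 CPM (2.08), Fbln1 (1.36), Mfap5 (1.62) and Fbn1, fibrillin-1 (0.92), were higher, and the latent TGFβ-binding protein Ltbp2 was lower (-2.03). Elastin itself did not pass edgeR's test (Eln, 0.05, adjusted p = 0.952). Col15a1, a collagen of basement membrane zones, was higher by 2.17 and the perlecan gene Hspg2 by 1.14. Lum, the proteoglycan lumican, was higher by 3.07, with 316, 320, 255 and 0 CPM against 19.9, 38.1, 16.8 and 81.8 CPM, while the proteoglycan Prelp was lower (-1.60).

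Of 17 proteases and inhibitors tested 9 were higher and 1 lower (median 0.91), beside 5.07% and 6.19% over all genes tested. Mmp3, stromelysin-1, was higher by 1.71, Mmp23 by 2.72 and the metalloproteinase inhibitor Timp1 by 2.13, and the serpin Serpine2 was lower (-2.02). Of 9 genes of the IGF axis and imprinted growth genes 5 were higher and 1 lower, beside the same shares over all genes tested. Igfbp4, with 1605, 1498, 2018 and 681 CPM against 204, 172, 204 and 921 CPM (2.44), the imprinted RNA Meg3 (2.74), Igf1 (1.17), Igfbp6 (1.11) and Gpc3 (0.67) were higher, and Igfbp3 was lower (-2.12). Of 14 growth factor ligands none was higher and 4 were lower, beside 5.07% and 6.19% over all genes tested, namely Bmp5 (-2.26), Angpt1 (-1.77), Fgf10, which maintains the distal epithelium (-1.51), and Gas6 (-0.71).

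Of 9 retinoid and steroid genes tested 2 were higher and 2 lower, beside 5.07% and 6.19% over all genes tested. Aldh1a2, which makes retinoic acid, had 47.5, 30.3, 34.6 and 0 CPM in adventitial against 2.49, 0, 0 and 35.8 CPM in alveolar fibroblasts (2.93, edgeR adjusted p = 0.00744), and Rbp4, the retinol carrier, was higher by 1.62. Aldh1a1, another retinaldehyde dehydrogenase, had 119, 65.6, 76.9 and 0 CPM against 939, 349, 1004 and 25.6 CPM (-3.07, SE 0.28, edgeR adjusted p = 3.22e-07), and Hsd11b1, which regenerates active glucocorticoid, was lower by -1.76. The lipid droplet gene Plin2 was lower too (-2.19). Of 14 mesenchymal transcription factors tested 4 were higher and 4 lower, beside the same shares over all genes tested. Ebf1, with 400, 363, 263 and 0 CPM against 52.3, 12.7, 16.8 and 97.2 CPM (2.96, SE 0.46, edgeR adjusted p = 0.000163), Twist2 (3.17), Creb5 (2.16) and Prrx1 (0.97) were higher, and Tbx4 (-2.03) and Tbx5 (-1.11), which pattern the lung mesenchyme, Tcf21 (-1.09), a gene of lipofibroblasts, and Nr2f2 (-0.93) were lower.

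Adventitial fibroblasts of 10 M were set against those of 2 M as the comparison with the most UMIs. Of 6133 genes with at least 30 UMIs over both libraries, 262 (4.27%) were at least 2-fold higher at 10 M and 197 (3.21%) at least 2-fold lower, with 0.5 UMIs added to each count. With 1 library per age these are differences between libraries and carry no test, and fewer cells of a kind among the members cannot be told apart from less RNA per cell. Most matrix genes lay lower at 10 M. Of 9 collagens outside the rule 8 were lower, 1 of them, Col14a1, by 2-fold or more (median log2 ratio -0.59, against -0.07 over all genes), as were all 8 small leucine-rich proteoglycans outside the rule (median -0.80) and 12 of 17 elastic fibre genes (median -0.35). Over all genes with at least 10 UMIs 4946 of 9145 were lower.

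The collagen genes of the rule are given as a description. Col1a1 stood at 1692 CPM in 10 M and 4584 CPM in 2 M adventitial fibroblasts, a ratio of 0.369 (exact conditional 95% interval 0.347 to 0.392). Col3a1 stood at 1839 and 4266 CPM (0.431, 0.405 to 0.458), and Eln at 664 and 1891 CPM (0.351, 0.319 to 0.387). Col1a1 and Col3a1 encode the chains of type I and type III collagen, and all 3 ratios lie far from 1. Sparc, a collagen-binding glycoprotein, stood at 3224 and 6525 CPM, Mfap4, a microfibril protein, at 433 and 1213 CPM, Mmp2, gelatinase A, at 342 and 777 CPM, and Podn, the proteoglycan podocan, at 79.0 and 242 CPM. Dcn, at 7709 and 9956 CPM (ratio 0.774), lay nearer to its 2 M level. The imprinted gene Peg3 stood at 45.0 and 199 CPM (0.226, 0.160 to 0.318).

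Signalling and inflammatory genes were among those higher at 10 M. Il33 stood at 205 CPM in 10 M and 63.0 CPM in 2 M (ratio 3.25, 2.16 to 5.11), Cxcl1 at 6861 and 3966 CPM (1.73, 1.64 to 1.83), Il6 at 1021 and 587 CPM, and C3 at 2216 and 1505 CPM (1.47, 1.35 to 1.61). Aldh1a3, which makes retinoic acid, stood at 90.0 and 10.1 CPM (8.93, 3.40 to 33.3), and Serpine2 at 121 and 27.7 CPM (4.35, 2.37 to 8.87). Of the Wnt genes Sfrp4, a secreted inhibitor, stood at 25.6 and 5.04 CPM (5.08, 1.31 to 43.5), and Rspo1 and Rspo3, which enhance Wnt signalling, were also at least 2-fold higher, while Wnt5a was at least 2-fold lower. The chemokine and cytokine list as a whole was mixed, with 9 genes higher and 6 lower (median 0.42).

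The genes with the greatest excess at 10 M came from few cells. The interferon-induced Ifit1 had 197 UMIs in 11 cells at 10 M, 91.4% of them in 1 cell, and none at 2 M. Hba-a2, Hbb-bt, Hbb-bs and Hba-a1 were next, with Hbb-bs at 43.6 times its 2 M level. Lowest at 10 M were Dner (0.146), Hhip, a Hedgehog inhibitor (0.174), Peg3, Col4a4, a basement membrane collagen (0.250), Epha4 (0.254) and Cgref1 (0.260). Peribronchial fibroblasts are also known for Hhip, which had a UMI in 13 of 195 adventitial fibroblasts at 10 M and 14 of 49 at 2 M.

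NB adventitial fibroblasts also held less matrix RNA than those of 2 M. Of 3380 genes with enough UMIs, 99 (2.93%) were at least 2-fold higher and 141 (4.17%) at least 2-fold lower in NB. Of 9 collagens outside the rule 8 were lower, 5 of them by 2-fold or more (median -1.07, against 0.01 over all genes), and 14 of 17 elastic fibre genes (median -0.62). Over all genes with at least 10 UMIs 3303 of 6698 were lower. Col1a1 stood at 570 CPM in NB and 4584 CPM in 2 M (ratio 0.124, 0.106 to 0.146), Col3a1 at 733 and 4266 CPM (0.172, 0.148 to 0.198), and Eln at 119 and 1891 CPM (0.0628, 0.0434 to 0.0881). Elastin and both collagens were therefore higher at 2 M than at the age before it and the age after it. Alveolar fibroblasts of NB, 2 M and 10 M had the same order for Col1a1 (334, 1029 and 756 CPM) and Col3a1 (376, 1093 and 767 CPM). The share of each adventitial fibroblast's UMIs taken by Col1a1, Col1a2 and Col3a1 together had a median of 0.215% for NB, 1.01% for 2 M, 0.482% for 10 M and 5.62% for the library labelled 18 M. It was 1% or more in 2 of 50 cells in NB, 25 of 49 in 2 M, 31 of 195 in 10 M and 8 of 8 in the library labelled 18 M, as a description, since these 3 genes are part of the rule.

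Igf1 stood at 78 CPM in NB and 298 CPM in 2 M (ratio 0.262), Lpl, lipoprotein lipase, at 50.9 and 146 CPM (0.348), Timp1 at 163 and 411 CPM (0.396) and Ccl2 at 509 and 1793 CPM (0.284). With cells chosen by the rule at 2000 UMIs each, the order turned for Ccl2 (log2 ratio 0.60) and Timp1 (0.066). Retinoid and steroid genes went the other way, with 9 of 11 higher in NB (median 0.64), beside 3395 of 6698 over all genes with at least 10 UMIs. Aldh1a3 stood at 74.7 CPM in NB and 10.1 CPM in 2 M (7.40, 2.51 to 29.6). Il33 stood at 288 and 63.0 CPM (4.58, 2.90 to 7.46), C3 at 3231 and 1505 CPM (2.15, 1.94 to 2.38), Csf1 at 709 and 343 CPM (2.07), and Prrx1, a mesenchymal transcription factor, at 221 and 93.3 CPM (2.36). Il33, C3 and Aldh1a3 were thus lowest at 2 M among the 3 younger ages, the reverse of the collagens. The heat shock gene Hspa1b stood at 5209 CPM in NB, 1951 CPM in 2 M and 1265 CPM in 10 M, and its part in these differences was not tested. Among the highest ratios in NB were those of Jchain, an immunoglobulin gene (37 UMIs against 0, at least 16.6-fold), S100a9, a neutrophil gene (9.09), H2-Q7 (6.15) and Trim30a (5.19). The lowest were Dner (0.0421), Eln, Col1a1, Ereg, an EGF-family ligand (0.126), Hhip (0.135) and Col3a1.

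**Figure D4:**
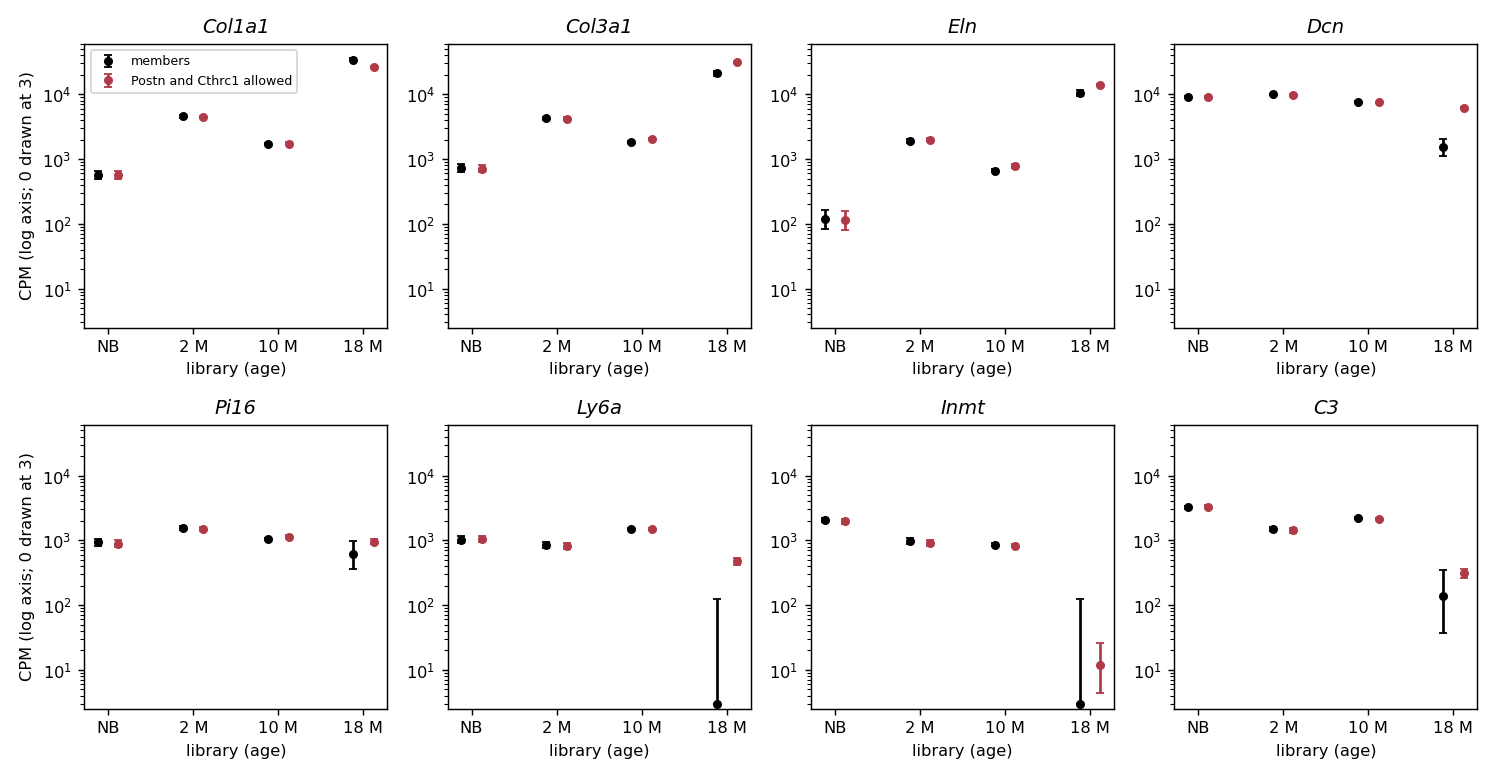
Levels of Col1a1, Col3a1, Eln, Dcn, Pi16, Ly6a, Inmt and C3 (CPM, log axis, exact Poisson 95% intervals) by age in the adventitial fibroblasts (black) and with cells holding Postn or Cthrc1 allowed (red); counts of 0 are drawn at 3. Both sets give nearly the same values in NB, 2 M and 10 M; in the library labelled 18 M the collagens and Eln are highest in both, and Ly6a and Inmt have no UMI in the 8 cells but some in the 45.

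The 8 adventitial fibroblasts labelled 18 M, against those of 2 M, showed high collagen and elastin RNA and low RNA of many adventitial genes. Of 2190 genes with enough UMIs 230 (10.5%) were at least 2-fold higher and 381 (17.4%) at least 2-fold lower, the widest background of the 3 comparisons and the one with the fewest UMIs. All 9 collagens outside the rule were higher, 6 of them by 2-fold or more (median 1.24, against 0.06 over all genes). Over all genes with at least 10 UMIs 2684 of 5195 were higher. The levels of Col1a1 and Col3a1, which the rule used, are a description. Col1a1 stood at 34289 CPM in the library labelled 18 M and 4584 CPM in 2 M (ratio 7.48, 6.92 to 8.08), Col3a1 at 21180 and 4266 CPM (4.96), and Eln at 10420 and 1891 CPM (5.51, 4.81 to 6.30). The deepest cell did not make this difference alone, since without it the other 7 cells (10635 UMIs) still held 12694 CPM of Col1a1 (10643 to 15025), 9309 CPM of Col3a1 and 22849 CPM of Eln. It did make that of the inflammatory genes, for Ccl2 had 4052 CPM with it and no UMI without it, Ccl7 6333 CPM with it and 94.0 CPM (1 UMI) without it, and Ptgs2 7287 CPM with it and 1034 CPM without it. High collagen was not particular to adventitial fibroblasts. In the alveolar fibroblasts Col1a1 stood at 9943 CPM in the library labelled 18 M and 1029 CPM in 2 M, and Col3a1 at 9319 and 1093 CPM.

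The genes lowest in the library labelled 18 M by the same rule were Inmt, Gm12840, Ly6a, Ccl11, Ebf1, Smoc2, Lum, Prelp and Ly6c1, all with 0 UMIs, and the metallothionein Mt1 with 6 UMIs (204 CPM, against 3353 CPM in 2 M). Of 19 adventitial markers 15 were lower (median -0.82), of 9 complement genes outside the rule 7 (median -1.16) and of 11 immediate early genes 10 (median -0.88). Over all genes with at least 10 UMIs 2511 of 5195 were lower. No gene was named as highest because none had a UMI in 10 cells. The 8 cells are few, shallow and rich in haemoglobin and epithelial RNA, and the part of these in the low values was not tested.

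With Postn and Cthrc1 allowed, 45 cells labelled 18 M with 497893 UMIs and a median of 10348 UMIs per cell could be set against 50 cells of 2 M, and the deepest of them held 4.49% of the UMIs. Postn stood at 2113 CPM in 31 and Cthrc1 at 217 CPM in 26 of these 45 cells. Pi16 stood at 958 CPM in 41 cells labelled 18 M, against 1493 CPM in 2 M, and Ly6a at 472 CPM in 23 cells, against 818 CPM. Ly6a, which had no UMI in the 8 cells, was thus present in cells of this library with the other adventitial genes. Of 4089 genes with enough UMIs 223 (5.45%) were at least 2-fold higher and 268 (6.55%) at least 2-fold lower.

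The collagen difference stood in the 45 cells as in the 8. Col3a1 had 31111 CPM in the library labelled 18 M and 4207 CPM in 2 M (ratio 7.40, 7.04 to 7.77), Eln 13927 and 2006 CPM (6.94, 6.46 to 7.47) and Col1a1 26588 and 4488 CPM (5.92, 5.64 to 6.22). All 9 collagens outside the rule were higher, 8 of them by 2-fold or more (median 1.30, against -0.09 over all genes). Over all genes with at least 10 UMIs 3330 of 7438 were higher. The 3 collagen genes took a median of 6.17% of a cell's UMIs, and 1% or more in 45 of 45 cells.

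The adventitial markers went both ways in the 45 cells. Of 20 adventitial markers 11 were higher and 9 lower than at 2 M (median 0.05), with Igfbp6 (ratio 0.363), Pcolce2 (0.348) and Scara5 (0.465) among those at least 2-fold lower. Over all genes with at least 10 UMIs 3330 of 7438 were higher and 4108 lower, which also stands beside the list counts below. Lum, with no UMI in the 8, stood at 948 CPM in the 45 and 327 CPM in 2 M (2.90, 2.39 to 3.54), Ebf1 at 261 and 348 CPM, Ccl11 at 305 and 420 CPM, and Prelp at 34.1 and 234 CPM (0.146). Inmt was low in both sets, with 12.1 CPM against 913 CPM in the 45 (0.0132, 0.00481 to 0.0290), and so was C3 with 309 and 1424 CPM (0.217, 0.181 to 0.260). Of 10 complement genes outside the rule 8 were lower, 5 of them by 2-fold or more (median -1.33), with C4b at a ratio of 0.0511. Of 12 genes of the IGF axis and imprinted growth genes 9 were higher, 6 of them by 2-fold or more (median 0.74). Igf2 had 442 CPM in 14 cells against 7.15 CPM in 2 M (61.8, 20.9 to 302), H19 had 691 CPM in 12 cells and Dlk1 203 CPM in 7 cells, against no UMI of either in 2 M, which put them at least 96.6-fold and 28.4-fold higher. None of Igf2, H19 and Dlk1 had a UMI in the 8 cells. RNA of other sources was higher too, with all 5 erythroid genes (median log2 ratio 5.13) and the 3 epithelial markers measured above their 2 M level, and its part was not tested. Xist stood at 534 CPM in 18 of the 45 cells, and whatever sets this library apart cannot be told apart from age.

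**Figure D5:**
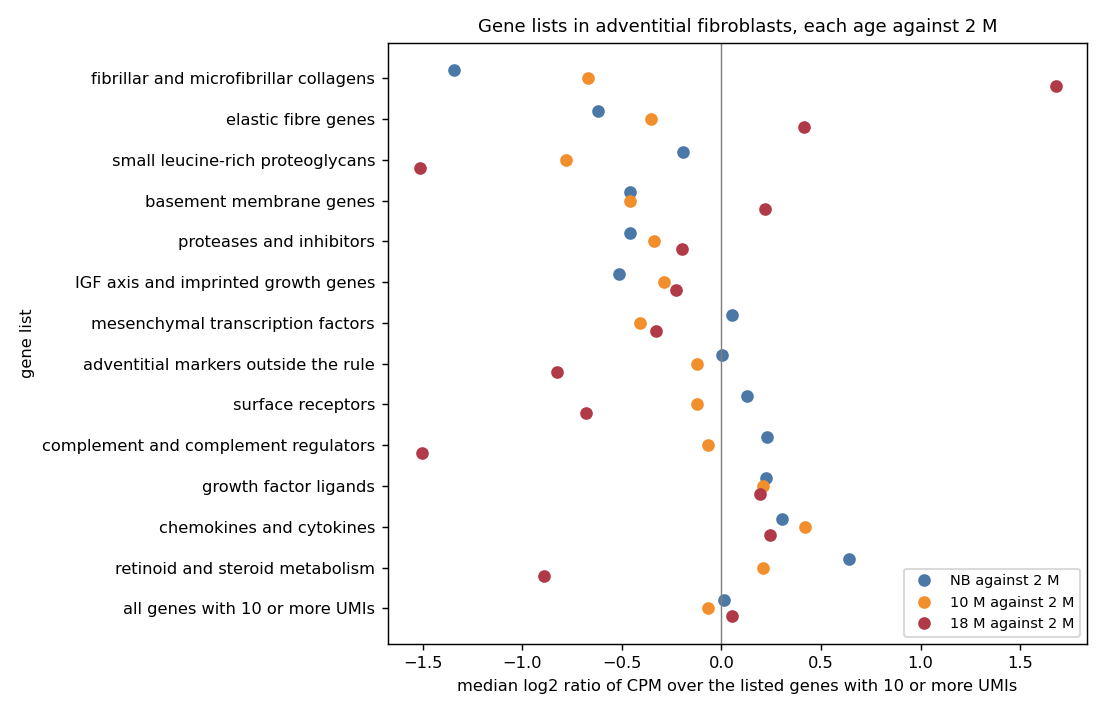
Median log2 ratio of 13 gene lists and of all genes in adventitial fibroblasts of NB, 10 M and the library labelled 18 M, each against 2 M (genes with at least 10 UMIs over both libraries). The 12 collagens, 3 of which the rule used, lie at -1.34 in NB, -0.67 in 10 M, and 1.68 for the library labelled 18 M, while the medians of all genes lie at 0.01, -0.07 and 0.06; the 3 comparisons share the 2 M cells.

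Within the adventitial fibroblasts, 243 cells of at least 2000 UMIs were ordered along the principal axes of 2671 genes, as a description. The first axis (2.25% of the variance, correlation with log2 depth 0.16 over these 243 cells) ran from Cxcl1, Cxcl2, Ptgs2, Ccl7, Il6, C3 and the metallothioneins Mt1 and Mt2 at one end to Fos, Jun, Egr1, Hspa1a and Hspa1b, genes of the response to dissociation and heat shock, at the other. The second axis (1.98%) had a correlation with depth of 0.46. The third (1.33%, correlation -0.06) ran from Mt1, Ptgs2, Il6 and Apoe to Col3a1, Fbn1, Eln, Pi16, Igfbp5, Fbln2, Col15a1 and Mfap5. On the third axis inflammatory and fibre-forming genes lay at opposite ends, and each axis held a small part of the variance. These cells come from 1 library each of NB, 2 M and 10 M, were centred within their library, and have sparse counts.

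Cells with and without a UMI of Pi16 were set side by side, again as a description because Pi16 is part of the rule. In NB 40 cells held it and 10 did not, in 2 M 45 and 4, in 10 M 157 and 38, and in the library labelled 18 M 8 and none. Igfbp5 stood at 1124 CPM with and 32.9 CPM without Pi16 in NB, 871 and 431 CPM in 2 M, and 749 and 307 CPM in 10 M. Fbn1 stood at 423 and 181, 718 and 431, and 554 and 215 CPM, and Ccl2 at 616 and 98.7, 2008 and 68.1, and 1782 and 259 CPM. Col15a1, Lamc1, Nid1 and Ctgf had the same order in all 3 libraries. Apoe ran the other way, at 1825 and 5035 CPM in NB, 1835 and 2904 CPM in 2 M, and 2034 and 5738 CPM in 10 M, as did Cxcl12 (325 and 576, 255 and 885, and 226 and 544 CPM), Inmt, C4b and Gas6. Of the 322 listed or rule genes these 12 were the ones whose ratio excluded 1 in NB, 2 M and 10 M alike by counting error alone.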

How the data were processed

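Cells of whole lungs of 4 ages had been sequenced in droplets, with 1 library for each age. The deposited values are UMI counts per gene and barcode, which the authors made with Cell Ranger 3.0.2 on mm10 (the matrix header names version 3.1.0) before filtering in Seurat 2.0. The deposited barcodes were filtered anew with the limits of the rule. Members and gene lists were chosen with earlier results of these data known.

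UMIs were summed per library and class and given as CPM with exact Poisson 95% intervals. Adventitial and alveolar fibroblasts were compared with edgeR 4.0.16 (R 4.3.3; TMM, filterByExpr, library as a block, common dispersion 0.04923) without the 19 genes of the rule. Ages were compared by ratios with exact conditional intervals and without p-values, among genes with at least 30 UMIs over both libraries (10 for list medians), with 0.5 UMIs added for log2 ratios. Named genes were those of the lists and rule, the 12 highest and 12 lowest against alveolar fibroblasts among genes at adjusted p under 0.05 with 1 direction in 4 libraries, and for ages the 6 (18 M: 10) highest and lowest with a UMI in 10 cells where higher and an interval without 1. Fibroblast classes were paired by library because both came from the same library.

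Alternatives were DESeq2 1.42.0, no block, RLE scaling, no filter, other limits on cells and rules, other pseudocounts and count minimums, the mean over cells, thinning to 2000 UMIs, each library left out, and, chosen after seeing the data, Postn and Cthrc1 allowed, at most 10000 UMIs per cell, and cells with haemoglobin or lymphocyte UMIs set aside. Other work used Python 3.11.15 with pandas 2.3.3, scipy 1.17.1, matplotlib 3.10.9 and numpy 2.4.6. The scripts were tested on simulated data. Gene positions are from GENCODE and promoters from RefSeq. A few genes that meet the rule for named genes are not reported here.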

Additional observations from a re-analysis of the deposited data

Results flagged for a closer look

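Some genes differed between adventitial and alveolar fibroblasts in opposite directions in different libraries. Values are ratios of CPM, adventitial over alveolar, whose exact 95% intervals exclude 1, and the differences between libraries were not tested. A ratio of 0 means no UMI in the 8 adventitial fibroblasts labelled 18 M. Tppp3 stood at 5.87 in NB and 0 in 18 M. The eotaxin Ccl11 stood at 96.3 or more in NB, 69.8 in 2 M, 66.9 or more in 10 M and 0 in 18 M. Hhip stood at 5.95 in 2 M and 0.141 in NB, and the monocyte chemokine Ccl2 at 7.23 in 2 M, 4.45 in 18 M and 0.386 in NB. All Ccl2 UMIs of the 8 adventitial fibroblasts labelled 18 M came from 1 cell, so the 4.45 describes that cell. Elastin (Eln) stood at 2.54 in 2 M and 0.401 in NB.

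In the library labelled 18 M further matrix genes were lower in adventitial fibroblasts where 2 M had them higher: Nid1 (0.396, against 2.12 in 2 M), Fbln5 (0.198, against 2.05) and Ltbp1 (0, against 2.98). C3 stood at 0.264 in 18 M, while NB had 3.91, 2 M 2.66 and 10 M 2.09, and Igfbp5 at 0.035, while these had 5.23, 21.6 and 8.51. Outside the limits on genes, UMIs and mitochondrial share, 12 cells met the conditions on genes.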

How the results depend on the processing

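Few cells, 1 library per age and 14 alveolar fibroblasts at 2 M limit every value, and the 18 M sum rests on 8 cells of which 1 held 63.8% of the UMIs. Counts past the test moved with the settings. Against 240 higher and 293 lower genes, the counts were 98 and 145 with no replicate block (the library pairs both classes), 50 and 67 after thinning, 42 and 80 with at most 10000 UMIs per cell, and 85 to 372 and 93 to 401 with 1 library left out. DESeq2 called 165 and 198, of which 164 and 197 were shared. Over the 24 genes with the greatest differences and 20 alternatives, 430 values kept direction and call, 46 could not be tested and 4 kept direction but lost the call: Serpinf1 (3.23) and Gxylt2 (2.21) with no replicate block, Gxylt2 (2.23) at 10000 UMIs and Apod (1.38) with the rule read at 2000 UMIs. Of the 77 other list genes called, 56 lost the call in at least 1 alternative and 24 in 5 or more (Gas6 in 11, Pcolce in 10, Igf1, Gpc3 and Col5a2 in 8), and none turned.

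Members numbered 35 in 2 M and 137 in 10 M at 10000 UMIs, 152 (10 M) and 0 (18 M) with 3 of the 4 adventitial genes, which left no 18 M comparison, 157 in 10 M with Pi16 required, and 45 in 18 M with Postn and Cthrc1 allowed. With the mean over cells, genes past 2-fold were 424 higher and 356 lower at 10 M, 200 higher in NB, and 353 higher and 767 lower in 18 M. With a minimum of 100 UMIs they were 46 and 34, 19 and 25, and 29 and 116 for 10 M, NB and 18 M. At 10000 UMIs 120 were lower at 10 M, 93 lower in NB, and 123 higher and 245 lower in 18 M, and 113 were higher in 18 M with the rule read at 2000 UMIs. On the log2 scale the sign turned for Clu at 10 M (-0.28, mean over cells), Ccl2 (0.60) and Timp1 (0.066) in NB with the rule read at 2000 UMIs, Lum in 18 M with that rule (1.20) and with Postn and Cthrc1 allowed (1.53), and the 18 M medians of the small leucine-rich proteoglycans (0.11) and Wnt genes (0.17) with 2 UMIs added. The cause was not tested.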
